A study of Mus musculus with 37 samples.

Results

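Astrocyte marker genes were followed in mouse cortex at 9 wk of age, in mice with and without the R6/2 transgene and with and without 1 null allele of Hdac4. The genes were taken from a list of 32 names that mark astrocytes in brain tissue. That list was chosen with earlier results of these data known, so its counts beside all genes are a description and not a test. Each gene was read by the brightest of its probe sets, averaged over the 37 arrays. They were 32 of the 18193 genes that a probe set of the array names alone, and 75 of its 45037 probe sets. In the 32, 26 homeostatic genes, active in resting astrocytes, were kept apart from 6 genes that are raised in reactive astrocytes or mark immature ones. That split was made here, also with those results known, so the counts on its 2 sides are a description as well.

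The 37 mice were 9 WT, 9 Hdac4HET, 9 R6/2 and 10 Dble::R6/2. R6/2 mice carried a transgene for the mutant exon 1 fragment of human huntingtin, the protein altered in Huntington's disease, in hemizygous form. Hdac4HET mice carried 1 null allele of Hdac4, a class IIa histone deacetylase, and Dble::R6/2 mice carried both. All 4 genotypes shared a mixed CBA and C57BL/6 background and came from crosses of R6/2 males with Hdac4HET females. The null allele was made in another mouse strain, so mice that carry it also carry DNA of that strain around Hdac4. Total RNA of the cortex was measured on 1 Affymetrix array per mouse.

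Astrocytes clear glutamate from synapses and convert it to glutamine, take up potassium and water at their endfeet on blood vessels, and form a coupled network through connexin channels. They also supply neurons with metabolic substrates and store brain glycogen. When tissue is injured or inflamed they turn reactive, a state classically marked by a rise of the intermediate filament proteins GFAP and vimentin. Homeostatic genes often fall in that state.

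Values are the authors' normalized log2 intensities per probe set, so a difference of 1 is a doubling, and levels of different probe sets are not comparable. Array medians lay between 6.16 and 6.21, and arrays of 1 genotype correlated at 0.993 to 0.998. Hdac4 itself did not overlap, with a highest level of 8.02 on arrays with the null allele and a lowest of 8.28 on those without it. On 8 arrays the mean of 13 olfactory bulb genes lay above that of every WT array, and 7 of these were Hdac4HET and 1 was Dble::R6/2. Hdac4HET replicate 3 passed this limit only narrowly, at 5.81 against 5.78 for the highest WT array. On 6 arrays sex-linked genes went against the labelled sex, 1 of them WT, 3 Hdac4HET and 2 Dble::R6/2. Of the Hdac4HET arrays among them, replicates 5 and 9 had both the female transcript Xist and the mean of Y-linked genes raised. Replicate 5 measured 11.21 for Xist and 6.56 for Y-linked genes, and replicate 9 measured 11.67 and 5.89. For comparison, WT replicate 1 measured 12.33 and 3.46, and WT replicate 2 measured 5.41 and 7.49. Whether such an array holds RNA of more than 1 mouse was not tested. All 32 markers had a probe set above the median level of all probe sets, 6.19, among them the defining markers Aldh1l1, Aqp4, Slc1a3 and Gja1.

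Homeostatic astrocyte genes were lower in cortex that carried the R6/2 transgene, whether or not Hdac4 was reduced. The comparison of R6/2 with WT asks what the transgene changes on its own, and that of Dble::R6/2 with Hdac4HET asks the same where both groups carry 1 null Hdac4 allele. The 2 comparisons share no array. In R6/2 against WT, 24 of the 32 markers were lower at an adjusted p under 0.05 (limma), where 18.4% of all genes tested were lower. Only Vim was higher, where 28.1% of all genes were higher. In Dble::R6/2 against Hdac4HET, 26 of the 32 were lower against 14.1% of all genes, and Vim alone was higher against 28.4% of all genes. Among genes above the median level of all probe sets, as all 32 markers were, 19.3% were lower in the first comparison and 18.9% in the second. The same 23 markers were lower in both comparisons. Cbs was lower only in R6/2 against WT, and Hepacam, Gjb6 and Fabp7 only in Dble::R6/2 against Hdac4HET, and a difference between the comparisons was called for none of these. Without the 8 arrays with raised olfactory bulb genes, which leaves 2 Hdac4HET and 9 Dble::R6/2 arrays, 26 and 20 markers were called, and without the 6 arrays whose sex-linked genes went against the label 24 and 22 were, of 25 and 27 with all arrays.

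The changes were small. The median log2 change of the 32 markers was −0.26 in R6/2 against WT and −0.24 in Dble::R6/2 against Hdac4HET, where the medians of all genes were 0 and 0.04. Of the markers lower in R6/2 against WT, 3 changed by more than 1.3-fold (Dio2, Slc7a10 and Ttyh1), a share to be read against 3.3% of all genes. In Dble::R6/2 against Hdac4HET 6 did (Slc1a2, Slc4a4, Ttyh1, Dio2, Slc7a10 and Fabp7), against 4.08% of all genes. Vim was higher by more than 1.3-fold in R6/2 against WT, as were 3.75% of all genes. In R6/2 against WT 9 markers were lower without overlap between the arrays, where 3.84% of all genes were lower without overlap. In the other comparison 11 markers were lower without overlap, where 4.29% of all genes were. The 7 markers lower without overlap in both were Slc25a18, Slc4a4, Ttyh1, Aldoc, Dio2, Slc7a10 and Ndrg2. Vim was higher without overlap in both, where 8.36% and 8.72% of all genes were. Across the 32 markers the changes of the 2 comparisons had the same sign for every gene and correlated with Pearson r = 0.88 and Spearman rho = 0.71, a description across genes, which are not independent. Whether there were fewer astrocytes or less RNA of these genes per astrocyte cannot be told apart in whole cortex.

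**Figure D1:**
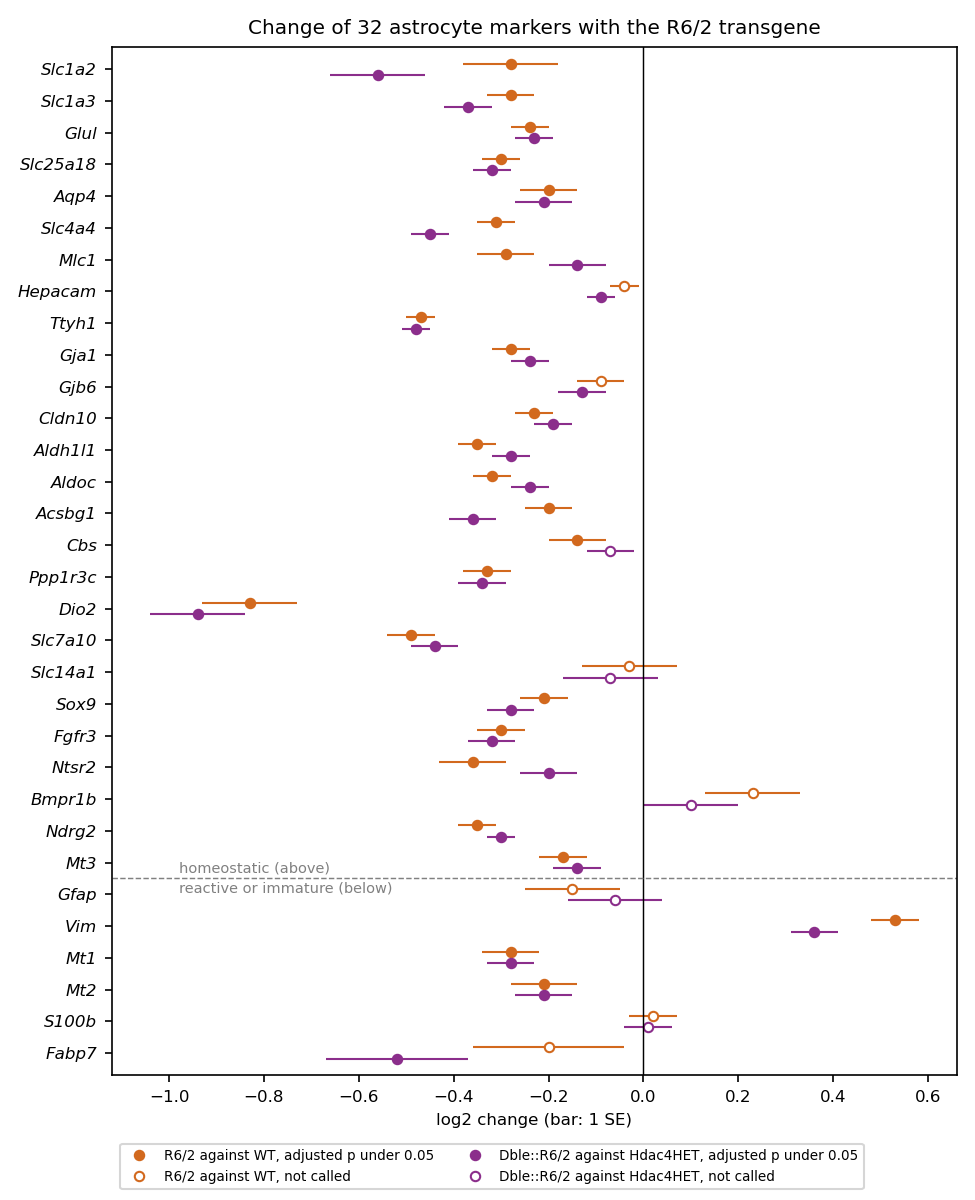
Log2 change of each of the 32 markers (1 row per gene, brightest probe set) in R6/2 against WT and in Dble::R6/2 against Hdac4HET, with 1 SE from limma as bars and filled points for an adjusted p under 0.05. Nearly all homeostatic genes lie left of 0 in both comparisons, Dio2 farthest at −0.83 and −0.94, and among the reactive or immature genes Vim lies right of 0 at 0.53 and 0.36.

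The mean level of the 26 homeostatic genes separated the arrays by transgene. It ran from 10.18 to 10.29 in WT (median 10.21), from 10.16 to 10.3 in Hdac4HET (median 10.23), from 9.91 to 10.04 in R6/2 (median 9.95) and from 9.86 to 10.01 in Dble::R6/2 (median 9.96). Every array with the transgene lay below every array without it, and the 2 genotypes on either side overlapped. Other lists separated as well. The mean of 50 further astrocyte genes was at most 9.15 with the transgene and at least 9.18 without it. For 8 genes of olfactory ensheathing glia it was at most 8.46 and at least 8.49. The mean of 14 neuron genes did not overlap in either comparison. How often lists of other genes separate was not computed. The mean of the 6 reactive or immature genes overlapped across all 4 genotypes, with medians of 10.34 in WT, 10.41 in Hdac4HET, 10.28 in R6/2 and 10.34 in Dble::R6/2. Of the homeostatic genes 22 of 26 were lower in R6/2 against WT and 23 of 26 in Dble::R6/2 against Hdac4HET, none higher in either, with median changes of −0.28 and −0.26. Of the 6 reactive or immature genes 2 were lower and 1 higher in the first, and 3 lower and 1 higher in the second.

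**Figure D2:**
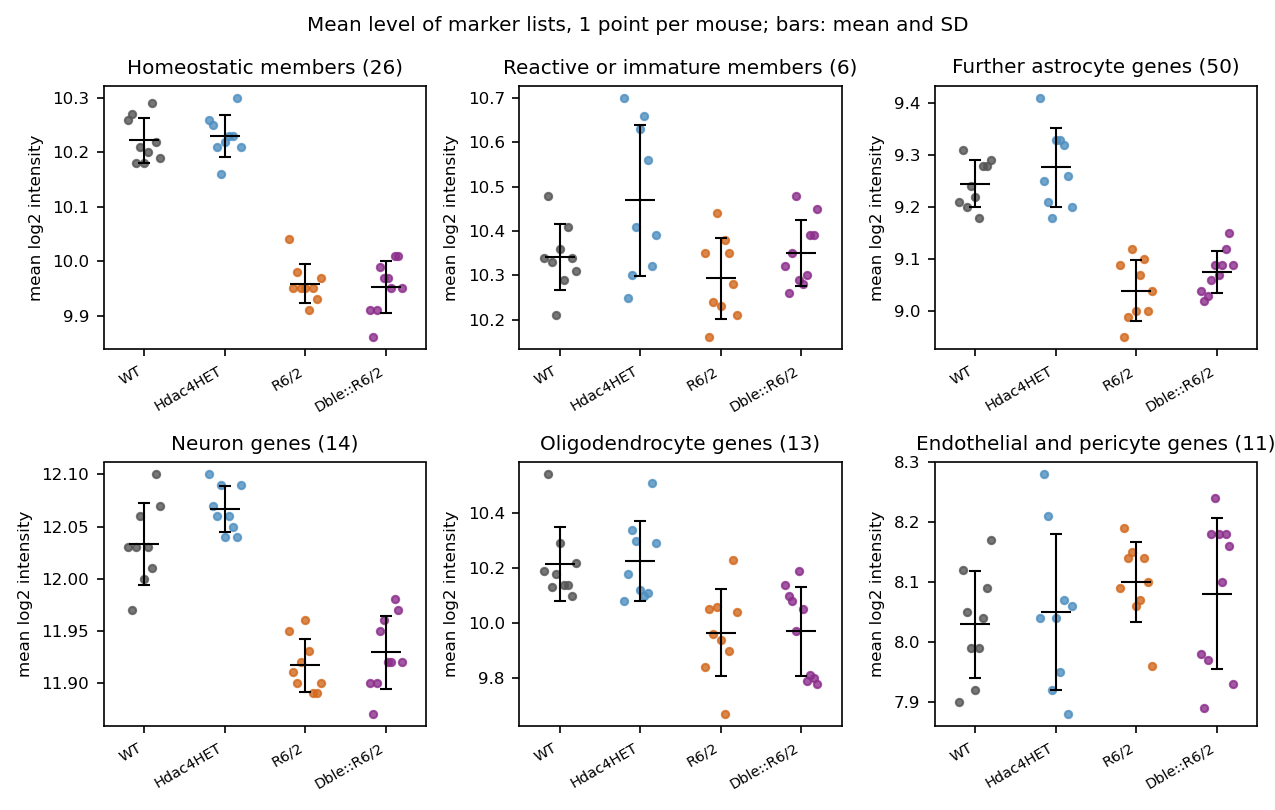
Mean log2 intensity of the probe sets of 6 marker lists on each of the 37 arrays (1 point per mouse, by genotype, with mean and SD), each panel on its own axis. Homeostatic members run from 9.86 to 10.04 with the transgene and from 10.16 to 10.3 without it, reactive or immature members overlap across genotypes, and the lists of other cell types are shown for comparison.

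All 4 genes of glutamate uptake and metabolism were lower in both comparisons. Slc1a3 encodes the glutamate transporter GLAST. Slc1a3 ran from 11.07 to 11.48 in WT (median 11.2), from 11.09 to 11.4 in Hdac4HET (median 11.28), from 10.76 to 11.08 in R6/2 (median 11.04) and from 10.75 to 11.04 in Dble::R6/2 (median 10.86). R6/2 and WT arrays met at the edge of their ranges, and Dble::R6/2 lay wholly below Hdac4HET. The log2 change, given throughout with ± 1 SE and with R6/2 against WT first where a pair is given, was −0.28 ± 0.05 (adjusted p = 5.33e-05) in R6/2 against WT and −0.37 ± 0.05 (adjusted p = 2.49e-07) in Dble::R6/2 against Hdac4HET. Slc1a2 encodes GLT-1, the transporter that carries most glutamate uptake in forebrain. Slc1a2 measured 12.79 to 13.34 in WT with a median of 12.94, 12.7 to 13.18 in Hdac4HET with a median of 13.09, 12.27 to 13.08 in R6/2 with a median of 12.9, and 12.32 to 12.78 in Dble::R6/2 with a median of 12.4. The R6/2 arrays reached into the WT range, whereas most Dble::R6/2 arrays lay at the low end of the R6/2 range. Slc1a2 changed by −0.28 ± 0.1 (adjusted p = 0.029) and −0.56 ± 0.1 (adjusted p = 2.27e-05), and the first of these calls was lost with only the 2 genotypes in the model, with array weights, with the methods' t-test and in 6 of 18 fits that left out 1 array. Glul, glutamine synthetase, turns the captured glutamate into glutamine. Glul ran from 13.21 to 13.47 in WT (median 13.32), from 13.21 to 13.44 in Hdac4HET (median 13.34), from 12.99 to 13.3 in R6/2 (median 13.06) and from 13.06 to 13.19 in Dble::R6/2 (median 13.11). Its fall was −0.24 ± 0.04 (adjusted p = 1.57e-06) and −0.23 ± 0.04 (adjusted p = 2.16e-06), close in size in both comparisons, with overlap in the first only. Slc25a18, a mitochondrial glutamate carrier, fell without overlap in both, by −0.3 ± 0.04 (adjusted p = 2.18e-07) and −0.32 ± 0.04 (adjusted p = 3.73e-08).

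Of the 5 genes of water, ion and volume control, 4 were lower in R6/2 against WT and 5 in Dble::R6/2 against Hdac4HET. Ttyh1, a chloride channel family member, had the smallest p of all markers in both. Ttyh1 measured 10.95 to 11.14 in WT with a median of 11.03, 10.91 to 11.07 in Hdac4HET with a median of 11.01, 10.4 to 10.64 in R6/2 with a median of 10.57, and 10.45 to 10.61 in Dble::R6/2 with a median of 10.53. The arrays with the transgene lay clear of those without it by a gap larger than the range of any 1 genotype. The changes were −0.47 ± 0.03 (adjusted p = 1.56e-16) and −0.48 ± 0.03 (adjusted p = 4.63e-17), so that intensity fell by 27.9% and fell by 28.5%. Slc4a4 encodes the sodium bicarbonate cotransporter NBCe1, which helps to set astrocyte pH. Slc4a4 ran from 10.35 to 10.62 in WT (median 10.43), from 10.39 to 10.66 in Hdac4HET (median 10.6), from 10.07 to 10.22 in R6/2 (median 10.15) and from 10.06 to 10.22 in Dble::R6/2 (median 10.12). Hdac4HET arrays were the highest group here and neither comparison overlapped, with changes of −0.31 ± 0.04 (adjusted p = 9.17e-09) and −0.45 ± 0.04 (adjusted p = 1.04e-12). Aqp4, the water channel of endfeet, changed by −0.2 ± 0.06 (adjusted p = 0.00526) and −0.21 ± 0.06 (adjusted p = 0.00388), and its genotypes overlapped. Mlc1 and Hepacam encode partner membrane proteins that are mutated in a human leukodystrophy with brain swelling. Mlc1 changed by −0.29 ± 0.06 (adjusted p = 8.17e-05) and −0.14 ± 0.06 (adjusted p = 0.0483), and the second call was kept in 7 of 19 fits that left out 1 array. Hepacam changed by −0.04 ± 0.03 (adjusted p = 0.312) and −0.09 ± 0.03 (adjusted p = 0.0121), small in both, and passed the test in the second only. Without the 8 arrays with raised olfactory bulb genes, which leaves 2 Hdac4HET arrays, Aqp4, Mlc1 and Hepacam no longer passed in Dble::R6/2 against Hdac4HET.

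The 3 junction genes all had lower values. Gja1 encodes connexin 43, the main astrocyte gap junction protein. Gja1 measured 12.07 to 12.24 in WT with a median of 12.17, 11.97 to 12.23 in Hdac4HET with a median of 12.12, 11.77 to 11.99 in R6/2 with a median of 11.87, and 11.76 to 11.99 in Dble::R6/2 with a median of 11.89. Its R6/2 arrays lay below all WT arrays, and it changed by −0.28 ± 0.04 (adjusted p = 5.73e-08) and −0.24 ± 0.04 (adjusted p = 5.62e-07). Cldn10, a claudin, changed by −0.23 ± 0.04 (adjusted p = 1.93e-05) and −0.19 ± 0.04 (adjusted p = 0.00032). Gjb6, connexin 30, the other astrocyte connexin, moved less, with −0.09 ± 0.05 (adjusted p = 0.198) and −0.13 ± 0.05 (adjusted p = 0.041), and its second call was lost in 10 of 19 fits that left out 1 array.

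Of the 8 metabolic enzymes and metabolite transporters, 7 were lower in R6/2 against WT and 6 in Dble::R6/2 against Hdac4HET. Dio2 showed the largest fall of all 32 markers in both comparisons. It encodes the type 2 deiodinase, by which astrocytes convert thyroxine to the active thyroid hormone used by neurons. Dio2 ran from 9.36 to 9.79 in WT (median 9.62), from 9.36 to 10.28 in Hdac4HET (median 9.54), from 8.24 to 9.16 in R6/2 (median 8.86) and from 8.56 to 9.08 in Dble::R6/2 (median 8.62). No array with the transgene reached the lowest array without it. The change was −0.83 ± 0.1 (adjusted p = 2.04e-08) and −0.94 ± 0.1 (adjusted p = 9.05e-10), so that intensity fell by 43.8% and fell by 47.7%.

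**Figure D3:**
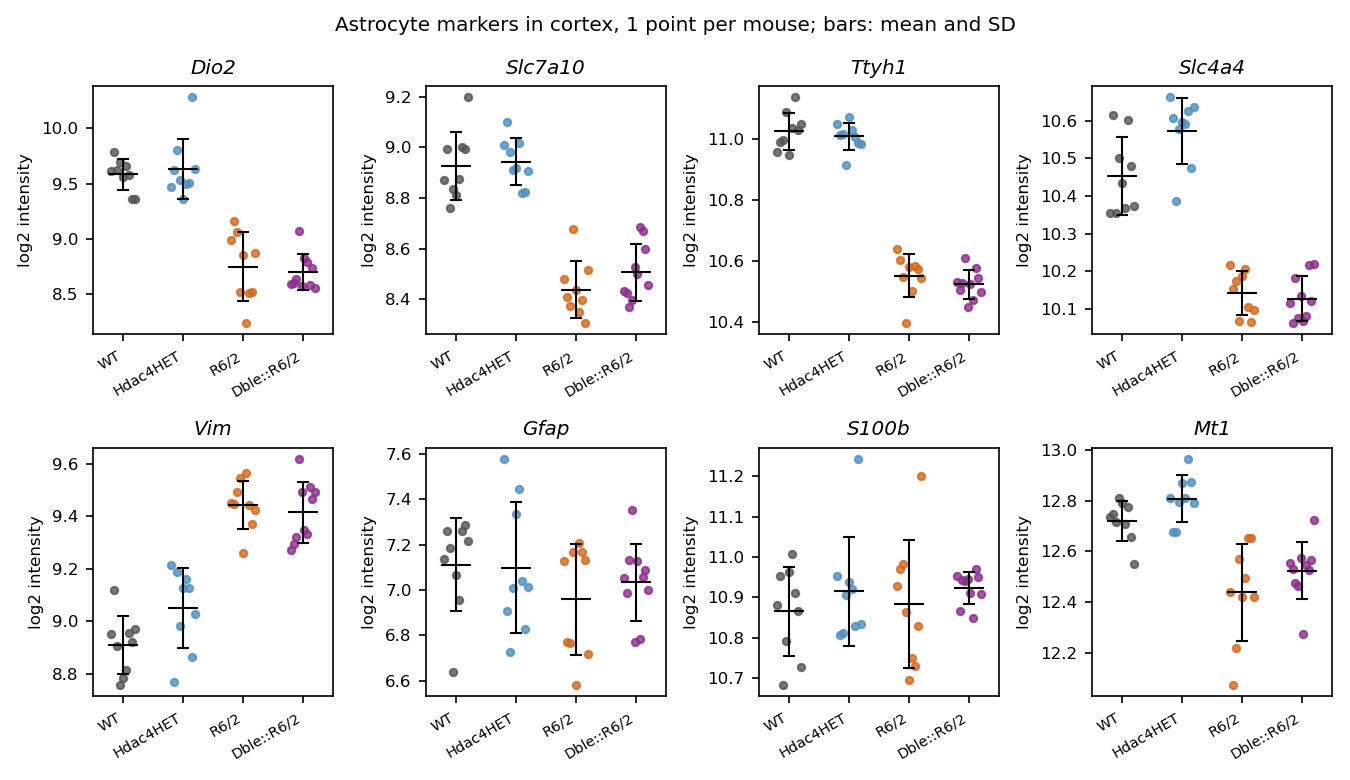
Log2 intensity of 8 markers on each of the 37 arrays (1 point per mouse, by genotype, with mean and SD), each panel on its own axis. Dio2, Slc7a10, Ttyh1 and Slc4a4 are lower without overlap in both genotypes with the transgene, Vim is higher without overlap, Gfap and S100b overlap in all genotypes, and Mt1 is lower with overlap.

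Slc7a10 encodes Asc-1, a transporter of small neutral amino acids including D-serine. Slc7a10 measured 8.76 to 9.2 in WT with a median of 8.88, 8.82 to 9.1 in Hdac4HET with a median of 8.92, 8.31 to 8.68 in R6/2 with a median of 8.41, and 8.37 to 8.69 in Dble::R6/2 with a median of 8.48. It was lower without overlap, by −0.49 ± 0.05 (adjusted p = 9.86e-10) and −0.44 ± 0.05 (adjusted p = 6.3e-09). Aldh1l1, a folate enzyme used as a pan-astrocyte marker, was narrow in WT. Aldh1l1 ran from 9.55 to 9.63 in WT (median 9.59), from 9.37 to 9.73 in Hdac4HET (median 9.57), from 9.08 to 9.35 in R6/2 (median 9.22) and from 9.17 to 9.42 in Dble::R6/2 (median 9.22). Its changes were −0.35 ± 0.04 (adjusted p = 2.67e-09) and −0.28 ± 0.04 (adjusted p = 1.75e-07), and R6/2 arrays lay below all WT arrays. Aldoc, the brain aldolase of glycolysis, varied least among the WT arrays. Aldoc measured 13.35 to 13.42 in WT with a median of 13.39, 13.34 to 13.53 in Hdac4HET with a median of 13.38, 12.84 to 13.3 in R6/2 with a median of 13.06, and 13.04 to 13.25 in Dble::R6/2 with a median of 13.17. Neither comparison overlapped, and the changes were −0.32 ± 0.04 (adjusted p = 2.11e-08) and −0.24 ± 0.04 (adjusted p = 3.59e-06). Acsbg1, an acyl-CoA synthetase, changed by −0.2 ± 0.05 (adjusted p = 0.00169) and −0.36 ± 0.05 (adjusted p = 2.6e-07). Ppp1r3c, a regulatory subunit that directs protein phosphatase 1 to glycogen, changed by −0.33 ± 0.05 (adjusted p = 1.04e-06) and −0.34 ± 0.05 (adjusted p = 4.65e-07). The gene for cystathionine beta-synthase, Cbs, was weakest among those called, with −0.14 ± 0.06 (adjusted p = 0.0439) and −0.07 ± 0.05 (adjusted p = 0.356), and kept its call in 8 of 18 fits that left out 1 array. Slc14a1, a urea transporter, did not pass in either comparison, with −0.03 ± 0.1 (adjusted p = 0.854) and −0.07 ± 0.1 (adjusted p = 0.628).

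Among the 5 receptors, signalling and transcription genes, 4 were lower in both comparisons. Ndrg2, a cytoplasmic protein abundant in mature astrocytes, was lower without overlap. Ndrg2 ran from 12.08 to 12.29 in WT (median 12.23), from 12.11 to 12.29 in Hdac4HET (median 12.22), from 11.71 to 11.98 in R6/2 (median 11.88) and from 11.82 to 12.02 in Dble::R6/2 (median 11.88). It changed by −0.35 ± 0.04 (adjusted p = 2.45e-10) and −0.3 ± 0.03 (adjusted p = 3.1e-09). Sox9, the transcription factor that specifies astrocytes, changed by −0.21 ± 0.05 (adjusted p = 0.00127) and −0.28 ± 0.05 (adjusted p = 1.8e-05). Fgfr3, a fibroblast growth factor receptor, changed by −0.3 ± 0.05 (adjusted p = 1.06e-05) and −0.32 ± 0.05 (adjusted p = 2.79e-06). Ntsr2, a neurotensin receptor, changed by −0.36 ± 0.07 (adjusted p = 2.42e-05) and −0.2 ± 0.06 (adjusted p = 0.0103). Bmpr1b, a bone morphogenetic protein receptor, had values in the other direction, 0.23 ± 0.1 (adjusted p = 0.0761) and 0.1 ± 0.1 (adjusted p = 0.502), and passed in neither with all arrays. In R6/2 against WT Bmpr1b was called higher in the fit without the 8 arrays with raised olfactory bulb genes. It was also called there in 3 of 18 fits that left out 1 array. Without the 8 arrays with raised olfactory bulb genes the second changes were −0.35 for Ntsr2, still called, and −0.24 for Bmpr1b, with the sign turned and not called. Mt3, the brain metallothionein and the only homeostatic member that binds metal, changed by −0.17 ± 0.05 (adjusted p = 0.00905) and −0.14 ± 0.05 (adjusted p = 0.0266). The second Mt3 call was lost with the methods' t-test, without the raised arrays (adjusted p = 0.177), without the arrays whose sex-linked genes went against the label, and when Hdac4HET replicate 7, Dble::R6/2 replicate 2 or Dble::R6/2 replicate 6 was left out.

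The 6 reactive or immature genes did not move together. Vim, which encodes vimentin, was the 1 marker that rose. Vim measured 8.76 to 9.12 in WT with a median of 8.92, 8.77 to 9.21 in Hdac4HET with a median of 9.13, 9.26 to 9.56 in R6/2 with a median of 9.45, and 9.27 to 9.62 in Dble::R6/2 with a median of 9.41. All arrays with the transgene lay above all arrays without it. The change was 0.53 ± 0.05 (adjusted p = 3.46e-10) and 0.36 ± 0.05 (adjusted p = 6.58e-07), 44.9% and 28.7% higher in intensity, and endothelial cells and pericytes also make vimentin. Without the 8 arrays with raised olfactory bulb genes the second change of Vim was 0.59 ± 0.08 (adjusted p = 4.07e-06), so it was no longer the smaller of the pair. Gfap, the classical marker of reactive astrocytes, did not pass. Gfap ran from 6.64 to 7.29 in WT (median 7.19), from 6.73 to 7.58 in Hdac4HET (median 7.01), from 6.58 to 7.21 in R6/2 (median 7.13) and from 6.77 to 7.35 in Dble::R6/2 (median 7.06). All 4 genotypes overlapped, and the changes were −0.15 ± 0.1 (adjusted p = 0.251), with an interval of 2 SE from −0.36 to 0.05, and −0.06 ± 0.1 (adjusted p = 0.678), with an interval from −0.26 to 0.14. S100b, a calcium-binding protein, had changes of 0.02 ± 0.05 (adjusted p = 0.817) and 0.01 ± 0.05 (adjusted p = 0.922), with intervals from −0.09 to 0.12 and from −0.09 to 0.11. Without the raised arrays the second values turned sign, to 0.17 ± 0.15 for Gfap and −0.1 ± 0.09 for S100b, and neither passed.

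Both metallothioneins of this group, which buffer zinc and are induced by metals and glucocorticoids, were lower. Mt1 measured 12.55 to 12.81 in WT with a median of 12.73, 12.68 to 12.96 in Hdac4HET with a median of 12.81, 12.07 to 12.65 in R6/2 with a median of 12.44, and 12.28 to 12.72 in Dble::R6/2 with a median of 12.54. Mt1 changed by −0.28 ± 0.06 (adjusted p = 8.62e-05) and −0.28 ± 0.05 (adjusted p = 5.34e-05), with overlap in both comparisons. Mt2 changed by −0.21 ± 0.07 (adjusted p = 0.00975) and −0.21 ± 0.06 (adjusted p = 0.00784), and the second call was lost without the raised arrays, at −0.22 ± 0.11 (adjusted p = 0.202). Fabp7, a fatty acid binding protein of radial glia and immature astrocytes, changed by −0.2 ± 0.16 (adjusted p = 0.34) in R6/2 against WT and by −0.52 ± 0.15 (adjusted p = 0.00664) in Dble::R6/2 against Hdac4HET. Fabp7 ran from 10.37 to 10.96 in WT (median 10.61), from 10.05 to 11.74 in Hdac4HET (median 10.81), from 9.94 to 10.81 in R6/2 (median 10.56) and from 10.15 to 10.75 in Dble::R6/2 (median 10.58). The widest spread was in Hdac4HET. On the 7 Hdac4HET arrays with raised olfactory bulb genes Fabp7 had a median of 11.37, and on the other 2 it measured 10.05 and 10.62. Without the raised arrays the change was 0.16 ± 0.18 (adjusted p = 0.637), with the sign turned. The part of olfactory bulb tissue in this result was not tested beyond that fit.

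**Figure D4:**
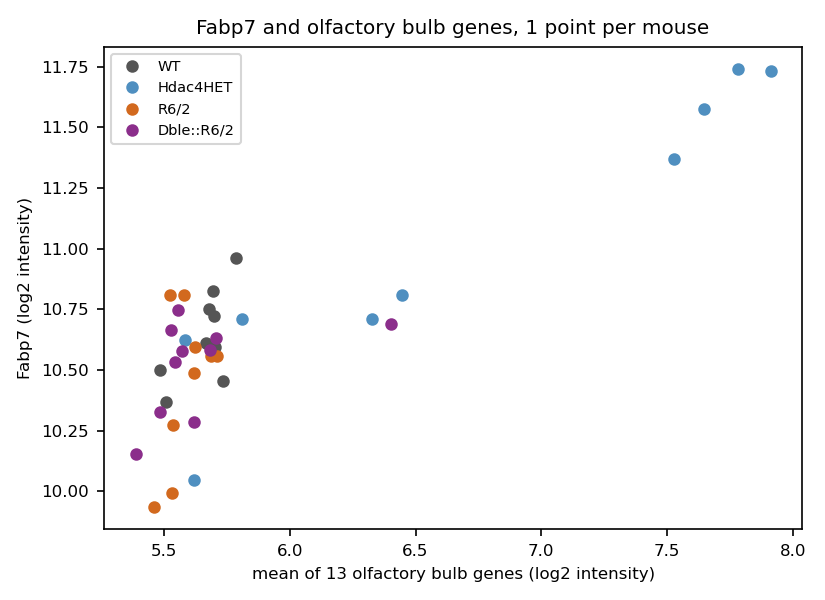
Fabp7 (log2 intensity, y axis) against the mean of 13 olfactory bulb genes (log2 intensity, x axis) on each of the 37 arrays, coloured by genotype. The Hdac4HET arrays run up to 7.91 on the x axis and up to 11.74 for Fabp7, whereas R6/2 arrays stay between 5.46 and 5.71 on the x axis.

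The 250 bases before the start of the genes for the largest fall, the rise and the classical marker that did not pass are shown to place these results on the genome, from the RefSeq sequences used here (GRCm38.p6). In these, 29 of the 32 markers were matched by symbol, and the promoters of Aqp4, Sox9 and Slc14a1 were not analysed here. They are Dio2 at chr12:90739039-90739288 on the minus strand, Vim at chr2:13574061-13574310 on the plus strand and Gfap at chr11:102897201-102897450 on the minus strand. Capitals mark matches, on either strand, to 3 motifs chosen after the sequences had been seen: the cAMP response element TGACGTCA, the TATA box TATAAA and the CCAAT box CCAAT.
Dio2: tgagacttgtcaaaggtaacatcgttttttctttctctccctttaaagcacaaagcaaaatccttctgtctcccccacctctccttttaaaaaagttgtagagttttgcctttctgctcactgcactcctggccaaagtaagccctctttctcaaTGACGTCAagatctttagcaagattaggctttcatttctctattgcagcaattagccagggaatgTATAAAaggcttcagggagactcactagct
Vim: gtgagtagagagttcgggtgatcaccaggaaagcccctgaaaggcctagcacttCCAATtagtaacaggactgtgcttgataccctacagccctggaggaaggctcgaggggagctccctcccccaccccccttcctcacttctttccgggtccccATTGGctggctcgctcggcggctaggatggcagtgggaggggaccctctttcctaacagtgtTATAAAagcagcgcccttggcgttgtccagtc
Gfap: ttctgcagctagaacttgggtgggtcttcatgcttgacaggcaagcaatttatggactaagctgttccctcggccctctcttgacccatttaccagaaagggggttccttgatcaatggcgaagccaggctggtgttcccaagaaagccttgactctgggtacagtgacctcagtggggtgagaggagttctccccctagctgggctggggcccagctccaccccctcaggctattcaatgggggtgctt
In Dio2 the cAMP response element began 95 bases before the start and the TATA box 30 bases before it. In Vim the TATA box began 32 bases before the start and the CCAAT box 196 and 94 bases before it, the nearer one on the opposite strand. None of the 3 motifs was in the Gfap window. Of the 32851 mouse promoter windows of this length 1.55% held the cAMP response element, 12.4% the TATA box and 33.8% the CCAAT box. Of the 29 markers with a window, Dio2 was the only 1 with the cAMP response element, 6 held the TATA box (20.7%) and 14 the CCAAT box (48.3%). The matches overlapped in none of the 3 windows and are a description of letters only.

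Some less bright probe sets of the same genes showed larger falls, and others showed smaller ones. Of the 75 probe sets of the markers, 50 were lower and 3 higher in R6/2 against WT, and 52 were lower and 3 higher in Dble::R6/2 against Hdac4HET. Among the 62 above the median level of all probe sets, 47 and 48 were lower. The shares over all probe sets were not computed. By brightest probe set, 18.4% and 14.1% of all genes were lower in the 2 comparisons and 28.1% and 28.4% were higher. Among genes above the median level 19.3% and 18.9% were lower. Of 12 lower markers with a further probe set above that level, 10 had one that fell further than the brightest in R6/2 against WT, and 10 of 12 did in the other comparison. A gene counts here if any of its further probe sets fell more, which favours genes with several, and the share over all genes was not computed. Gja1 counts through a probe set at −0.77, whereas others changed by −0.21, −0.24 and −0.25 against −0.28 for its brightest. For Glul the less bright of its 2 probe sets measured 11.13 to 11.31 in WT, 11.09 to 11.38 in Hdac4HET, 10.36 to 10.67 in R6/2 and 10.45 to 10.69 in Dble::R6/2. It changed by −0.71 ± 0.04 (adjusted p = 1.81e-17) and −0.65 ± 0.04 (adjusted p = 7.06e-17), without overlap. For Slc4a4 the third brightest of its 5 probe sets changed by −0.75 ± 0.1 (adjusted p = 9.65e-08) and −0.98 ± 0.1 (adjusted p = 1.88e-10). For Slc1a2 the second brightest of its 5 probe sets ran from 9.67 to 11.02 in WT, 9.3 to 10.98 in Hdac4HET, 8.48 to 9.75 in R6/2 and 8.2 to 9.9 in Dble::R6/2. It changed by −1.31 ± 0.22 (adjusted p = 9.64e-06) and −1.11 ± 0.22 (adjusted p = 7.88e-05), so the size of the Slc1a2 fall depends on the probe set. The second brightest probe set of Aqp4 changed by −0.44 ± 0.09 and −0.65 ± 0.09, and that of Aldoc by −0.56 ± 0.08 and −0.55 ± 0.08. All 3 probe sets of Dio2 were lower and all 3 of Vim higher in both comparisons, and all 3 of Gfap passed in neither. Which transcripts or ends of a transcript each probe set reads was not analysed here.

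**Figure D5:**
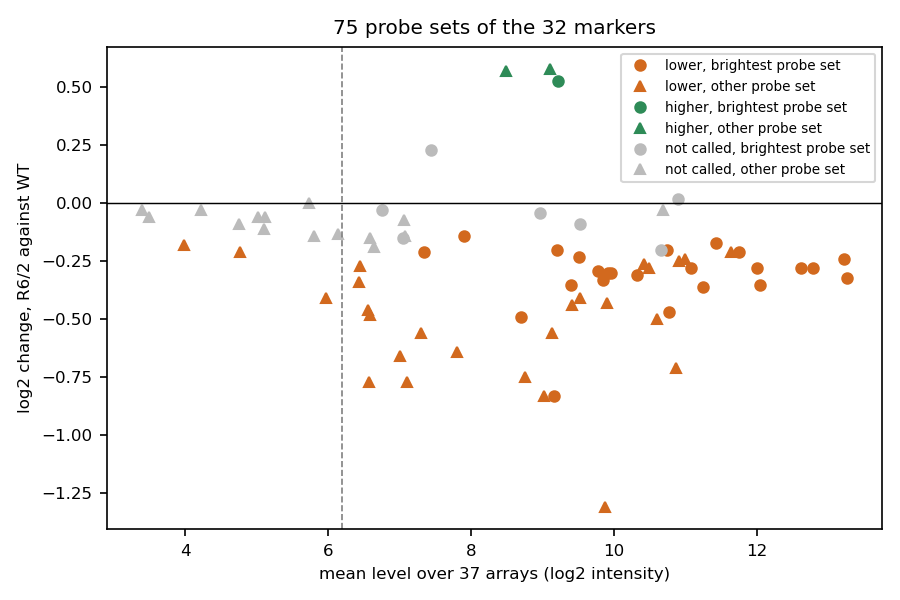
Log2 change in R6/2 against WT (y axis) of the 75 probe sets of the 32 markers against their mean level over the 37 arrays (log2 intensity, x axis), with circles for the brightest probe set of a gene and triangles for the others. The dashed line is the median level of all probe sets, 6.19. The largest fall is that of Slc1a2 at −1.31, and the 3 probe sets of Vim stand alone above 0.5.

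Read by their brightest probe sets, none of the 32 markers passed the test in the comparisons of Hdac4 dose, and 2 less bright probe sets did. In Hdac4HET against WT, 0 of 32 were called by limma, and 0 by the methods' t-test, nor was any of their 75 probe sets called by limma, where 0.511% of all genes were lower and 1.33% higher. Unadjusted p was under 0.05 for 5 (Slc4a4, Acsbg1, Vim, Fabp7 and Hepacam). Slc4a4 was nearest with a change of 0.12 ± 0.04 (adjusted p = 0.0863), and it was called when WT replicate 2, WT replicate 7 or Hdac4HET replicate 3 was left out. Vim changed by 0.14 ± 0.05 (adjusted p = 0.173). Fabp7 had the largest value at 0.39 ± 0.16 (adjusted p = 0.191), with the raised olfactory bulb genes of the Hdac4HET arrays beside it. For 31 of the 32 the interval of 2 SE stayed within a 1.3-fold change.

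The comparison of Dble::R6/2 with R6/2 asks whether less Hdac4 alters the markers where the transgene is present. On the brightest probe sets 0 of 32 were called by limma and 0 by the t-test, where 0.429% of all genes were lower and 1.53% higher, and unadjusted p was under 0.05 for 4 (Slc1a2, Aldoc, Sox9 and Mlc1). Slc1a2 was nearest, at −0.26 ± 0.1 (adjusted p = 0.159), lower in Dble::R6/2. Dio2 changed by −0.05 ± 0.1 (adjusted p = 0.851), Vim by −0.03 ± 0.05 (adjusted p = 0.846) and Gfap by 0.08 ± 0.1 (adjusted p = 0.762). For 30 of the 32 the interval stayed within a 1.3-fold change. Of all 75 probe sets of the markers 2 were called higher in Dble::R6/2, both near the median level of all probe sets. The fifth brightest of the 6 probe sets of Gja1 ran from 6.55 to 7.41 in WT, 6.47 to 7.12 in Hdac4HET, 5.57 to 6.49 in R6/2 and 6.25 to 6.84 in Dble::R6/2, and changed by 0.43 ± 0.11 (adjusted p = 0.0323) against R6/2. The less bright of the 2 probe sets of Fgfr3 ran from 6.56 to 6.91 in WT, 6.48 to 7.01 in Hdac4HET, 5.82 to 6.56 in R6/2 and 6.4 to 6.59 in Dble::R6/2, and changed by 0.29 ± 0.07 (adjusted p = 0.0317). In both the R6/2 and Dble::R6/2 ranges overlapped, and the brightest probe sets of these genes changed by 0 ± 0.04 and 0.02 ± 0.05. The interaction, which compares the transgene effect with and without the null allele, was called by limma for 0 of 32 and for none of the 75 probe sets, where 1.04% of all genes were called in either direction, with 3 at an unadjusted p under 0.05 (Slc4a4, Vim and Acsbg1). It was −0.13 ± 0.05 (adjusted p = 0.153) for Slc4a4, −0.17 ± 0.08 (adjusted p = 0.216) for Vim and −0.32 ± 0.22 (adjusted p = 0.429) for Fabp7. For 28 of the 32 the interval of the interaction stayed within a 1.3-fold change.

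A longer list of astrocyte genes, also chosen with earlier results of these data known, moved the same way. Of 50 further astrocyte genes measured, 29 were lower and 1 higher in R6/2 against WT, and 32 lower and 0 higher in Dble::R6/2 against Hdac4HET (38 in either direction at an unadjusted p under 0.05), with a median change of −0.2 in both. Mfge8, a secreted bridge for phagocytosis, changed by −0.61 ± 0.04 (adjusted p = 3.08e-15) in the first and −0.44 ± 0.04 (adjusted p = 1.04e-11) in the second. Htra1, a secreted serine protease, changed by −0.5 ± 0.04 (adjusted p = 4.99e-14) and −0.51 ± 0.04 (adjusted p = 1.83e-14). Cxcl14, a chemokine, changed by −0.56 ± 0.04 (adjusted p = 1.52e-13) and −0.49 ± 0.04 (adjusted p = 2.48e-12). Gpr37l1, an orphan receptor of astrocytes, changed by −0.39 ± 0.03 (adjusted p = 1.43e-11) and −0.3 ± 0.03 (adjusted p = 3.74e-09).

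Genes of reactive states were called in both directions, in numbers to be read against all genes, of which 28.1% were higher and 18.4% lower in R6/2 against WT and 28.4% and 14.1% in Dble::R6/2 against Hdac4HET. Of 13 pan-reactive genes 4 were higher and 2 lower in the first, and 2 higher and 2 lower in the second, shares that lie near or below those of all genes. The 4 with the lowest p in R6/2 against WT were S1pr3, a sphingosine phosphate receptor, at 0.29 ± 0.05, Aspg, an asparaginase, at −0.38 ± 0.07, Socs3, an inhibitor of cytokine signalling, at −0.4 ± 0.08, and Serpina3n, a secreted protease inhibitor, at 0.32 ± 0.07. Of 9 measured genes of the A1 set, induced by inflammation, 5 were higher and 1 lower in the first comparison and 5 higher and 0 lower in the second. They included the interferon-induced genes Psmb8 at 0.33 ± 0.08, Iigp1 at 0.46 ± 0.12 and Gbp2 at 0.33 ± 0.11, and the complement inhibitor Serping1 at 0.46 ± 0.12, which cells other than astrocytes can also make. Of 11 genes of the A2 set, described after ischaemia, 2 were lower and 0 higher in the first (Emp1 at −0.2 ± 0.07 and Tgm1 at −0.15 ± 0.06) and 0 lower and 2 higher in the second (3 and 2 at an unadjusted p under 0.05), which is no more than the share of all genes.

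Markers of other cell types were called as well, again beside 18.4% of all genes lower and 28.1% higher in R6/2 against WT and 14.1% and 28.4% in Dble::R6/2 against Hdac4HET. Of 14 neuron genes 9 were lower and 2 higher in the first with a median change of −0.12, and 10 were lower and 2 higher in the second with a median of −0.15. Values in R6/2 against WT were, for Rbfox3, the nuclear protein NeuN, at −0.28 ± 0.03, Gad1, which makes GABA, at −0.37 ± 0.05, Syt1, a synaptic vesicle protein, at −0.12 ± 0.02, and Stmn2, a neuronal growth protein, at 0.31 ± 0.03. The mean level of the 14 neuron genes ran from 11.97 to 12.1 in WT, 12.04 to 12.1 in Hdac4HET, 11.89 to 11.96 in R6/2 and 11.87 to 11.98 in Dble::R6/2. Neither comparison overlapped for this mean. Of 13 oligodendrocyte genes 9 were lower and 0 higher with a median of −0.29, and 8 lower and 0 higher in the second comparison with a median of −0.32. They were led in the first by Tspan2 at −0.53 ± 0.09, Mal at −0.48 ± 0.09, Mobp at −0.39 ± 0.07 and Ugt8a at −0.35 ± 0.09, all of myelin or its lipids. The medians of the homeostatic astrocyte genes were −0.28 and −0.26. The mean level of the oligodendrocyte genes ran from 10.1 to 10.54 in WT, 10.08 to 10.51 in Hdac4HET, 9.67 to 10.23 in R6/2 and 9.78 to 10.19 in Dble::R6/2, so that the genotypes overlapped. Of 13 microglia genes 6 were lower and 1 higher with a median of −0.15, and 5 lower and 0 higher in the second with a median of −0.13. Examples from the first were Cd68 at −0.39 ± 0.07, Cx3cr1 at −0.29 ± 0.07, P2ry12 at −0.25 ± 0.07 and Itgam at −0.31 ± 0.09. Of 11 endothelial and pericyte genes 0 were lower and 5 higher with a median of 0.14, such as Rgs5 at 0.16 ± 0.04, Abcc9 at 0.19 ± 0.06, Flt1 at 0.2 ± 0.07 and Tek at 0.22 ± 0.07. In the second comparison 0 were lower and 2 higher (Rgs5 at 0.19 ± 0.04 and Abcc9 at 0.25 ± 0.06) with a median of 0.03, against 0.04 for all genes. The mean of this list ran from 7.9 to 8.17 in WT, 7.88 to 8.28 in Hdac4HET, 7.96 to 8.19 in R6/2 and 7.89 to 8.24 in Dble::R6/2, so that all genotypes overlapped, and its part in the rise of Vim, which was called in both comparisons, was not tested.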

How the data were processed

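The authors hybridised biotin-labelled cRNA from cortex to Affymetrix whole-genome mouse arrays, and 37 arrays, 1 per mouse, were used here. Their methods state that arrays failing a quality measure were excluded. The group sizes in those methods, given without an age, are smaller than those used here for every genotype but 1. Whether the 37 arrays include any that the authors excluded cannot be told from the labels or methods. The authors deposited normalized log2 intensities per probe set. How probes were summarised and normalized is not stated in the labels or methods, and their log2 scale was read from the values. No raw probe intensities were used, and the number of arrays limits the precision. Genotype and replicate number were taken from the sample titles.

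Probe sets were named from GEO's platform annotation. Of 45037 probe sets, 34945 had 1 gene symbol, 932 several and 9160 none, and only the first kind was used for genes. Each gene was read by the probe set with the highest mean. All 45037 probe sets of the 37 arrays entered 1 limma model (version 3.58.1, R 4.3.3) of 4 genotypes, with a trended prior and Benjamini-Hochberg adjustment over all of them. A gene was called at an adjusted p under 0.05 at any size, and background shares are over 18193 genes. A t-test with the same adjustment, which the study's methods name, was an alternative.

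The 32 members, all of which are named, and the other lists (astrocyte, reactive and other cell types) were chosen with earlier results of these data known. Of each other list up to 4 genes called in R6/2 against WT were named by lowest p, or, with none called, the 2 of lowest p. Same-numbered mice of different genotypes were checked for pairing: of 54 pairs the correlation of deviations was over 0.1 in 12, with a median of 0.01. The main model held no pairing. Differently numbered mice were not compared, so this check cannot exclude that the numbers pair some mice. The model was tested on simulated data. Promoters came from RefSeq (GRCm38.p6) and figures from matplotlib 3.10.9 in Python 3.11.15.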

Additional observations from a re-analysis of the deposited data

Results flagged for a closer look

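Each of the 32 markers was examined in each of the 4 genotypes for a highest or lowest array that stood apart from the rest by Dixon's test at its 95% limit. Of the 128 sets of values 10 held such an array, where chance gives about 1 in 20. Dio2 had a high array in Hdac4HET (replicate 8, 10.28, next 9.81) and in Dble::R6/2 (replicate 4, 9.08, next 8.82). Hepacam had a high array in R6/2 (replicate 4, 9.09, next 8.94) and a low one in Dble::R6/2 (replicate 7, 8.79, next 8.9). In WT replicate 4 both Ppp1r3c (9.75, next 9.97) and Gfap (6.64, next 6.96) were low. Cldn10 was low in Hdac4HET replicate 4 (9.48, next 9.59), Mt3 was low in Hdac4HET replicate 3 (11.36, next 11.5) and S100b was high in Hdac4HET replicate 8 (11.24, next 10.95). Mt2 was low in Dble::R6/2 replicate 6 (11.37, next 11.65). Hdac4HET replicate 8 is 1 of the 2 arrays of its genotype without raised olfactory bulb genes.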

How the results depend on the processing

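With all arrays 25 markers were called in R6/2 against WT and 27 in Dble::R6/2 against Hdac4HET. Asking for more than 1.3-fold as well left 4 and 6. The other alternatives gave 23 to 26 in the first comparison and 20 to 27 in the second, and leaving out 1 array gave 23 to 26 and 24 to 27. With the replicate number as a block 24 and 26 were called, and whether the numbers pair the mice is not known. The methods' t-test called 23 and 25. Hdac4HET against WT gave 0, and 0 to 1 when 1 array was left out, the 1 being Slc4a4. Dble::R6/2 against R6/2 and the interaction gave 0 markers under all alternatives run, whereas 2 single probe sets were called in the first of these. Of the single-gene values that were called 1 reversed: Fabp7 in Dble::R6/2 against Hdac4HET, −0.52 with all arrays, was 0.16 once the 8 arrays high in olfactory bulb genes were left out. Values that were not called crossed 0 under some alternative for Slc14a1 and S100b in R6/2 against WT and for Bmpr1b, Gfap and S100b in Dble::R6/2 against Hdac4HET. Leaving out those 8 arrays also ended the second call of Aqp4, Mlc1, Hepacam, Gjb6, Mt2 and Mt3, and leaving out the arrays whose sex-linked genes went against the label that of Aqp4, Mlc1, Gjb6, Mt3 and Fabp7, and the first call of Cbs. Of the other values of the 32 genes in both comparisons, 1835 kept their direction where called and their side of the threshold, 109 lost their call and 5 gained one. The 109 include the calls lost only because more than 1.3-fold was asked for as well. Without probe sets ending in _x_at or _s_at Mt1 lost its call in both comparisons, at −0.13 and −0.08, and with the mean of all probe sets Sox9 lost its call in R6/2 against WT. The causes were not tested. The number of arrays limits how small a change could be called, and in the comparisons without the raised arrays only 2 Hdac4HET mice remain.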

Other observations

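The remaining lists describe tissue that a dissection of cortex could carry. Their counts in R6/2 against WT stand beside 18.4% of all genes lower and 28.1% higher. Of 8 oligodendrocyte precursor genes 4 were lower and 0 higher in R6/2 against WT with a median log2 change of −0.14, namely Gpr17, a receptor of committed precursors, at −0.48 ± 0.1, Matn4, a matrix protein, at −0.3 ± 0.07, Pdgfra, the growth factor receptor that defines these cells, at −0.16 ± 0.04, and Cspg4, the proteoglycan NG2, at −0.16 ± 0.05. Of 8 genes listed for olfactory ensheathing glia 3 were lower and 0 higher. Npy fell most, by 0.89 ± 0.06 on the log2 scale (limma adjusted p = 3.5e-15), from 11.66 to 11.98 in WT to 10.59 to 11.14 in R6/2. This neuropeptide is also made by cortical interneurons. Frzb, a secreted Wnt antagonist, changed by −0.71 ± 0.08 and Ngfr, a neurotrophin receptor, by −0.24 ± 0.08.

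Of 13 olfactory bulb genes 2 were lower and 1 higher in R6/2 against WT (Trh at −0.75 ± 0.25, Nmb at −0.47 ± 0.18 and Dlx2 at 0.43 ± 0.12). These shares lie below those of all genes, 18.4% lower and 28.1% higher. In Dble::R6/2 against Hdac4HET 10 of the bulb genes were lower, where 14.1% of all genes were. In Hdac4HET against WT 10 were higher with a median of 1.3, where 1.33% of all genes were higher. The mean of the bulb genes per array ran from 5.58 to 7.91 in Hdac4HET and from 5.49 to 5.78 in WT. Of 12 genes of choroid plexus, ependyma, meninges and blood 1 was higher and 1 lower in R6/2 against WT (Ogn at 0.47 ± 0.1 and Hba-a1 at −0.16 ± 0.05), again below the shares of all genes.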
